A study of Mus musculus with 21 samples.

Results

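The regions described here are DNase I hypersensitive sites (DHS) that had a peak at 2 successive stages of innate lymphoid development, had no peak at the stage before them, and overlapped no TCF1 binding peak. They were chosen by merging overlapping DHS peaks of 3 progenitor stages (1 bp was enough) along chromosomes 1 to 19 and X of mouse build mm9. A region was a member if it held a peak of the early innate lymphoid progenitor (EILP) and of the innate lymphoid cell precursor (ILCP), no peak of the all-lymphoid progenitor (ALP), and no base of a TCF1 peak measured in EILP. This gave 9001 members among 102313 regions, covering 2.25 Mb. They made up 13.1% of the 68949 EILP regions and 12.7% of the 71094 ILCP regions. Another 479 regions had the same stage pattern and a TCF1 peak, which was 5.05% of the 9480 regions of that pattern. A TCF1 peak was present in 5.62% of EILP regions and 4.16% of all regions. Regions with an EILP and an ILCP peak and no ALP peak, with or without TCF1, were 13.7% of EILP regions. The rule used all of these peaks, so nothing is read from these shares.

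All cells were sorted from bone marrow of C57BL/6 mice. ALP were sorted as Lin-, Kit+, 2B4+, a4b7-, Flt3high and IL-7Ra+. EILP were Lin-, Kit+ and 2B4+ as well, but a4b7+, Tcf7+ and Thy1-. The ILCP gate kept a4b7+ and Tcf7+ and added Thy1+ and IL-7Ra+. Being Tcf7+ was thus part of the sort for both stages in which members had peaks, and not of the sort for ALP. The genotype label was Tcf7EGFP/+ for ALP and ILCP and Tcf7EGFPnull/+ for EILP, while the file headers name all pooled DNase files WT. Both are EGFP alleles of Tcf7. By these labels EILP differs from the other stages in genotype too, and its stage and its genotype cannot be told apart. DNase-seq used 3 libraries per stage of 300 cells each, digested with 0.3 units of DNase I for 5 minutes. TCF1 was measured in EILP by CUT&RUN with 500 cells per library, in 6 TCF1 and 4 IgG libraries that include technical repeats. The labels read here give no age and no count of animals.

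Innate lymphoid cells are lymphocytes without rearranged antigen receptors. They develop from lymphoid progenitors that progressively give up the T and B cell fates, and the stages named here follow that order. TCF1 is an HMG-box transcription factor encoded by Tcf7, expressed from the EILP stage onward and needed for normal innate lymphoid development. DNase I cuts DNA where nucleosomes are displaced, mostly at promoters, enhancers and insulators, so a DHS marks a stretch of accessible DNA and not the factor that occupies it.

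Each stage had 1 peak list, made from all of its libraries together. The ALP list rested on 12420429 tags, the EILP list on 11236009 and the ILCP list on 12681410. No value below therefore has a replicate error, no test was made, and every comparison is a description. Intervals are 95% Wilson intervals that cover the counting of regions only. Region strength is the authors' fold enrichment of the strongest peak within its own list. This is its height + 1 divided by its local background + 1. Height is the number of extended tags at the peak summit. A percentile is a region's rank by fold enrichment among all regions of the same list. The TCF1 list was shallow, with 2418839 tags and a median peak height of 5 tags. The header of the TCF1 list names an IgG control pool that includes a library whose 2 samples carry TCF1 in their titles. The absence of a TCF1 peak is therefore not a measurement of absent binding, and the absence of an ALP peak is not a measurement of closed chromatin. No gene annotation or sequence of mm9 was used here, so a region is given by its coordinates alone, and the sorted identities were not checked at marker genes.

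Members had moderate to low strength at both stages. Their EILP fold enrichment ran from 3.03 to 16.4 with a median of 5.71, and their EILP height from 5 to 49 tags with a median of 10. Their ILCP fold enrichment ran from 2.89 to 22.6 with a median of 6.51, and their ILCP height from 5 to 76 tags with a median of 12. These medians sat between those of regions seen at a single stage and those of regions seen at all 3. In the EILP list, regions without TCF1 had a median fold of 5.00 when found in EILP alone, 5.86 when shared with ALP and lost at ILCP, and 8.62 when present at all 3 stages. In the ILCP list the corresponding medians were 5.23 for regions found in ILCP alone, 5.63 for those shared with ALP and missing at EILP, and 8.60 for those present at all 3. The 479 regions with the same pattern of peaks and a TCF1 peak had medians of 5.92 in EILP and 7.65 in ILCP. Since the presence of peaks chose the members, these values describe them and support nothing further.

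**Figure D1:**
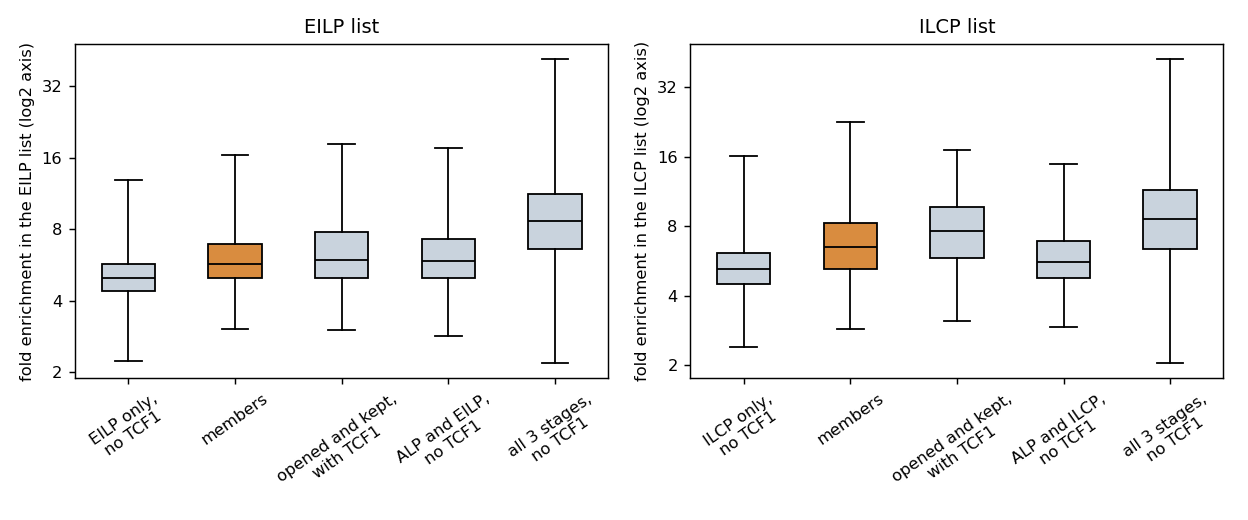
Fold enrichment (log2 axis) of regions by pattern of peaks, in the EILP list (left) and the ILCP list (right); boxes span the quartiles, the line is the median and whiskers reach the lowest and highest region. Members (orange) had medians of 5.71 and 6.51, above regions found at 1 stage alone and below regions found at all 3 stages.

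Most members ranked low in EILP. The median percentile was 32.7 among EILP regions and 44.1 among ILCP regions. Of the members, 2281 (25.3%, 24.5 to 26.3) ranked above the 50th percentile in EILP, 3778 (42.0%, 41.0 to 43.0) did so in ILCP, and 1439 (16.0%, 15.2 to 16.8) did so in both. A further 4381 members (48.7%, 47.6 to 49.7) were at or below the 50th percentile in both lists. The ILCP percentile was higher than the EILP percentile in 5640 members (62.7%, 61.7 to 63.7). The corresponding share was 50.2% (49.7 to 50.7) of the 36734 regions present at all 3 stages without TCF1, and 73.9% (69.8 to 77.6) of the 479 regions opened and kept with a TCF1 peak. Regions shared by ALP and EILP and lost at ILCP ranked higher in ALP than in EILP in 55.3% (54.3 to 56.3) of 9569 cases. Ranks come from lists of different lengths and depths, so these shares do not measure a change in accessibility.

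Strength at the 2 stages was loosely related across members. Over the 9001 members, Spearman's rho between EILP and ILCP fold enrichment was 0.344 and Pearson's r of the log2 values was 0.376. For regions present at all 3 stages without TCF1 they were 0.669 and 0.680. Other classes seen at 2 stages had lower values than that too. Between ALP and EILP they were 0.369 and 0.410 for regions lost at ILCP without TCF1. Between EILP and ILCP they were 0.480 and 0.496 for the 479 regions opened and kept with TCF1. In each class the points share the 2 pooled libraries of origin, and the cutoff removes weak peaks from both axes. When all EILP regions were divided into quintiles by fold enrichment, members fell mostly in the weaker ones: 2782 were in the weakest, 2522 in the next, 2329 in the middle, 1142 in the fourth and 226 in the strongest. Their median ILCP percentile rose along the same order, from 33.6 through 40.6, 48.5 and 61.4 to 77.8. In the weakest EILP quintile, 90 of 2782 members (3.24%) reached the strongest ILCP quintile. In the strongest EILP quintile 99 of 226 (43.8%) did, and 6 (2.65%) were in the weakest ILCP quintile.

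**Figure D2:**
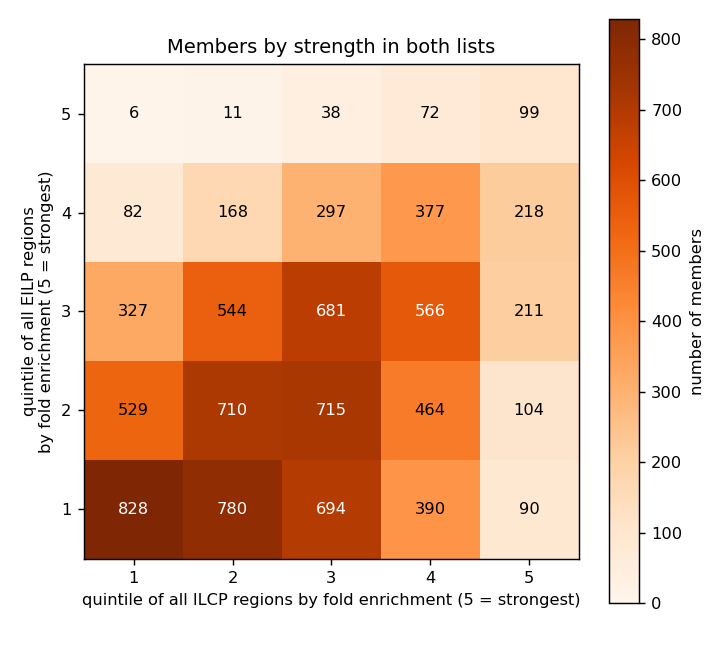
Number of members by quintile of fold enrichment in the EILP list (vertical) and in the ILCP list (horizontal), each quintile taken over all regions of that list. The largest cell is the weakest of both lists with 828 members, and the cell strongest in both holds 99.

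The share of newly detected EILP regions that were detected again at ILCP rose with strength. Of all EILP regions, 28.1% had no ALP peak and 71.5% had an ILCP peak. Among the 18769 EILP regions without an ALP peak and without TCF1, 9001 were kept, or 48.0% (47.2 to 48.7). By quintile of EILP strength the kept share was 34.6% (33.5 to 35.6), 48.4% (47.0 to 49.8), 61.4% (59.8 to 62.9), 77.7% (75.5 to 79.8) and 93.0% (89.1 to 95.6), the last from 226 of 243 regions. In every quintile it was below the share for regions retained from ALP without TCF1, which ran from 49.6% (48.3 to 50.9) to 97.2% (96.9 to 97.5). It was also below the share for regions gained with a TCF1 peak, from 66.8% (59.9 to 73.1) of 193 regions in the weakest quintile to 25 of 25 in the strongest. In the strongest quintile the intervals of the regions gained with and without TCF1 overlapped. TCF1 overlap was scored over the whole merged region, which for a kept region includes its ILCP peak. Median widths were 227 bp for members and 291 bp for the regions opened and kept with TCF1. Regions found in EILP alone without TCF1 had a median width of 136 bp, and the part of width in these shares was not tested. The rule used the presence of ILCP peaks, so the order of these shares is a description of the lists.

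**Figure D3:**
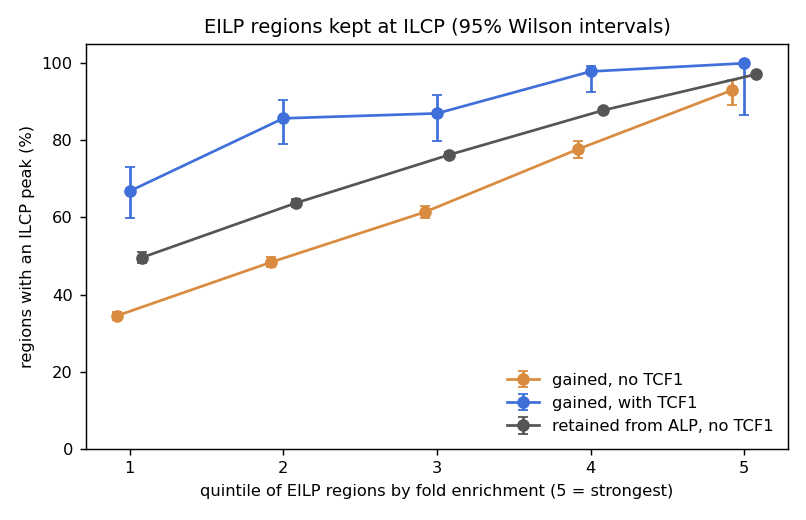
Percentage of EILP regions that had an ILCP peak, by quintile of EILP fold enrichment, for regions gained at EILP without TCF1 (orange; the kept ones are the members), gained with TCF1 (blue) and retained from ALP without TCF1 (grey); bars are 95% Wilson intervals. The orange line runs from 34.6% to 93.0%.

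Read from the later stage, the strongest ILCP regions missing from ALP had mostly been detected at EILP already. Of ILCP regions with no ALP and no TCF1 peak, members made up 18.9% (18.1 to 19.7) of the 9366 in the weakest ILCP quintile. The share was 29.1% (28.1 to 30.2) in the next and 44.7% (43.4 to 46.1) in the middle. It was 60.9% (59.2 to 62.6) in the fourth and 80.1% (77.4 to 82.6) of 901 in the strongest. Over all quintiles there were 9001 members and 17348 regions found in ILCP alone without TCF1. The rule used the EILP and ILCP peaks, so this rise is a description of the lists.

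Within a member, the peaks of both stages lay on nearly the same spot. A single peak of each list formed 8916 of the members (99.1%, 98.8 to 99.2), 58 held more than 1 EILP peak and 30 more than 1 ILCP peak. The summits of the strongest peaks were a median of 30 bp apart (quartiles 12 and 61 bp, largest 358 bp). They were within 50 bp of each other in 6084 members (67.6%, 66.6 to 68.6) and more than 100 bp apart in 812 (9.02%, 8.45 to 9.63). The median distance was 37 bp in the weakest EILP quintile and 21 bp in the strongest. It was 19 bp for the regions present at all 3 stages without TCF1 and 35 bp for those opened and kept with TCF1. Between ALP and EILP it was 32 bp for regions lost at ILCP without TCF1. Some overlap of the peaks was part of the rule. The cut fragments were extended to 100 bp, so these distances are short against the width of the signal itself.

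The EILP peak of a member had a median length of 166 bp (quartiles 128 and 213) and the ILCP peak 194 bp (151 and 268). The ILCP peak was the longer in 5768 members (64.1%, 63.1 to 65.1) and the EILP peak in 3111 (34.6%, 33.6 to 35.6). In 3334 members (37.0%, 36.0 to 38.0) the EILP peak lay wholly inside the ILCP peak, and in 1298 (14.4%, 13.7 to 15.2) the ILCP peak lay wholly inside the EILP peak. For regions present at all 3 stages without TCF1 the median lengths were 222 bp in EILP and 219 bp in ILCP. For those opened and kept with TCF1 they were 203 and 266 bp. The ILCP pool also had more tags than the EILP pool, and the part of depth in these lengths was not tested. The merged regions were 100 to 905 bp wide with a median of 227 bp.

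The local background of the peaks, worked out from height and fold enrichment, had a median of 0.760 tags at members in EILP and 0.930 in ILCP. At regions present at all 3 stages without TCF1 the medians were 1.04 and 1.11, and at regions found in EILP alone the EILP median was 0.740. At regions opened and kept with TCF1 they were 1.03 and 1.30. The DNase lists had no control, so this background came from the same tags, with those of the peak included. The lowest value, which is the genome-wide background of the caller, was 0.601 in EILP and 0.678 in ILCP.

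Outside chromosome 18, the 12 members that ranked highest in both lists, by the lower of their 2 percentiles, had clear peaks of at least 21 tags at each stage. The first, chromosome 11 from 58423565 to 58423888, reached 25 tags and a fold of 14.6 in EILP. In ILCP it had a fold of 22.6 and 50 tags, the highest ILCP fold of any member. Its nearest ALP peak was 21.7 kb away. On chromosome 6, the member at 50366787 to 50367255 had 39 tags in EILP and 41 in ILCP, with folds of 16.1 and 14.6. Its nearest ALP peak was 34.7 kb away, and a TCF1 peak lay 282 bp from its edge. Only this one of the 12 had a TCF1 peak within 1 kb.

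Chromosome 1 held the next, at 158993770 to 158994205, with folds of 14.0 in EILP and 15.7 in ILCP and summits 6 bp apart. A second member on chromosome 11, at 58103842 to 58104146, had the highest EILP fold of any member, 16.4 with 36 tags, and an ILCP fold of 14.1 with 29 tags. The chromosome 10 member at 111183141 to 111183610 had 26 tags in EILP and 42 in ILCP. The one on chromosome 3 at 78832016 to 78832398 had 28 and 30, and the one on chromosome 4 at 116116060 to 116116442 had 24 and 28. The remaining 5 had EILP folds of 12.8 to 14.9 and ILCP folds of 12.9 to 13.5. They lay on chromosome 5 at 30228257 to 30228622 and at 4961998 to 4962238, on chromosome 16 at 26384248 to 26384673 and at 92654205 to 92654463, and on chromosome 17 at 45779865 to 45780100. The last chromosome 16 member had its summit on the same base in both lists.

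The nearest ALP peak of these 12 members lay between 4.96 and 43.3 kb from their edges. Those ALP peaks themselves had folds of 4.81 to 15.4 in the ALP list. Summits of the 12 were 0 to 61 bp apart between the stages.

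Some members were strong at 1 stage and near the cutoff at the other. The 3 whose EILP percentile most exceeded their ILCP percentile lay on chromosome 2 at 51336213 to 51336550, chromosome 8 at 111388163 to 111388429 and chromosome 7 at 135032428 to 135032686. They had 18, 20 and 18 tags in EILP and 6, 7 and 7 tags in ILCP. Their percentiles were 86.7, 79.2 and 84.0 in EILP against 6.29, 1.89 and 8.99 in ILCP. The reverse pattern was most marked on chromosome 8 at 129408147 to 129408400, chromosome 2 at 131306442 to 131306819 and chromosome 17 at 48589521 to 48589772. Each of these had 6 tags in EILP, with percentiles of 1.80, 7.84 and 7.84. In ILCP they had 29, 27 and 28 tags and folds of 13.3, 15.1 and 14.1. All 6 of these regions rest on 6 or 7 tags at their weaker stage.

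**Figure D4:**
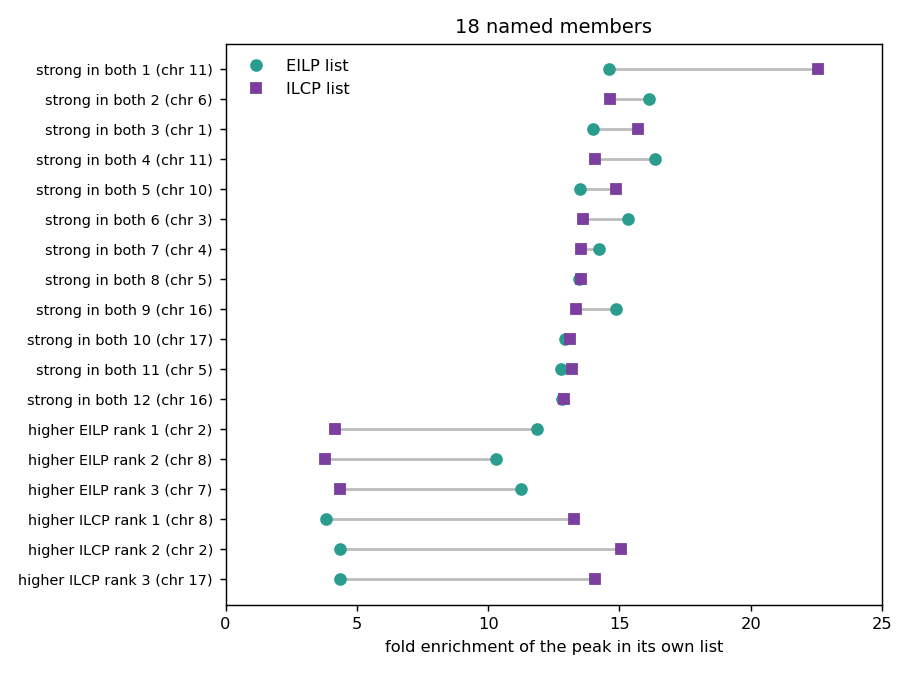
Fold enrichment of 18 named members in the EILP list (circles) and the ILCP list (squares), each within its own list; labels give the set, the rank in it and the chromosome. The 12 members strong in both lists sit between 12.8 and 22.6, and the other 6 fall to between 3.77 and 4.37 at their weaker stage.

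At the weak end, the 5 members with the lowest EILP fold had folds of 3.03 to 3.23 and heights of 10 to 15 tags in EILP. The 3 widest members were 905 bp on chromosome 7 at 75812692 to 75813596, 832 bp on chromosome 10 at 59843712 to 59844543 and 794 bp on chromosome 2 at 30481372 to 30482165. Their ILCP heights were 37, 27 and 35 tags against 18, 10 and 16 in EILP, and the chromosome 10 member joined 2 EILP peaks to 1 ILCP peak.

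Values just inside and just outside the rule were as follows. There were 66 members with an ALP peak 1 to 50 bp away, with a median EILP fold of 5.14. Just outside, 73 regions with peaks of EILP and ILCP and no TCF1 had an ALP peak that shared 1 to 50 bp, with a median EILP fold of 4.94. The median widths were 216 bp inside and 296 bp outside. Outside, the width includes the joined ALP peak, so these widths are not like measures. On the TCF1 side, 28 members lay 1 to 50 bp from a TCF1 peak and had a median EILP fold of 6.14. Another 40 regions with the same stage pattern shared 1 to 50 bp with a TCF1 peak, and their median EILP fold was 5.12. The ILCP medians on this side were 6.65 inside and 5.71 outside.

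Most members had an ALP peak within 10 kb, and so did regions found in EILP alone or in ILCP alone. The nearest ALP peak was a median of 5675 bp from a member, within 1 kb for 1516 members (16.8%, 16.1 to 17.6) and within 10 kb for 5879 (65.3%, 64.3 to 66.3). Only 221 members (of 9001) had no ALP peak within 100 kb. Regions found in EILP alone without TCF1 lack an ALP peak by the same rule. They were a median of 4866.5 bp away, with 22.1% (21.3 to 23.0) within 1 kb and 69.2% (68.3 to 70.1) within 10 kb. For regions found in ILCP alone without TCF1, 61.0% (60.2 to 61.7) lay within 10 kb. Stronger members lay farther from ALP peaks. The share within 1 kb was 24.0% (22.5 to 25.7) in the weakest EILP quintile, then 18.6% (17.1 to 20.1), 11.6% (10.4 to 13.0), 8.58% (7.09 to 10.3) and 4.87% (2.74 to 8.50). For regions found in EILP alone the first 4 values were 26.5% (25.3 to 27.7), 21.2% (19.7 to 22.8), 11.3% (9.81 to 13.1) and 8.26% (5.74 to 11.7). The last quintile of that class held 17 regions, 0 of which lay within 1 kb. In each quintile the intervals of both classes overlapped.

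Over all strengths together, TCF1 peaks lay at similar distances from members and from the regions that were not kept. The nearest TCF1 peak was a median of 74291 bp from a member and 75615.5 bp from a region found in EILP alone without TCF1. It lay within 10 kb of 1197 members (13.3%, 12.6 to 14.0) and of 12.8% (12.1 to 13.5) of the regions found in EILP alone. The share was 15.0% for regions present at all 3 stages without TCF1. A TCF1 peak lay within 500 bp of 177 members and within 1 kb of 286 (3.18%, 2.83 to 3.56), against 2.65% (2.35 to 2.99) of regions found in EILP alone. Among members, the share within 10 kb fell from 15.7% (14.4 to 17.1) in the weakest EILP quintile to 10.2% (6.88 to 14.8) in the strongest, with 14.6%, 256 of 2329 members and 10.1% in those between. Regions found in EILP alone fell over the same quintiles, from 14.1% (13.2 to 15.1) through 13.0% (11.8 to 14.3) and 9.08% (7.71 to 10.7) to 6.73% (4.48 to 9.98) in the fourth, and the strongest held 3 of 17. Members had the higher share in 4 of the 5 quintiles, with overlapping intervals in each. The list held 6679 TCF1 peaks, and bound sites missing from it could lie nearer.

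**Figure D5:**
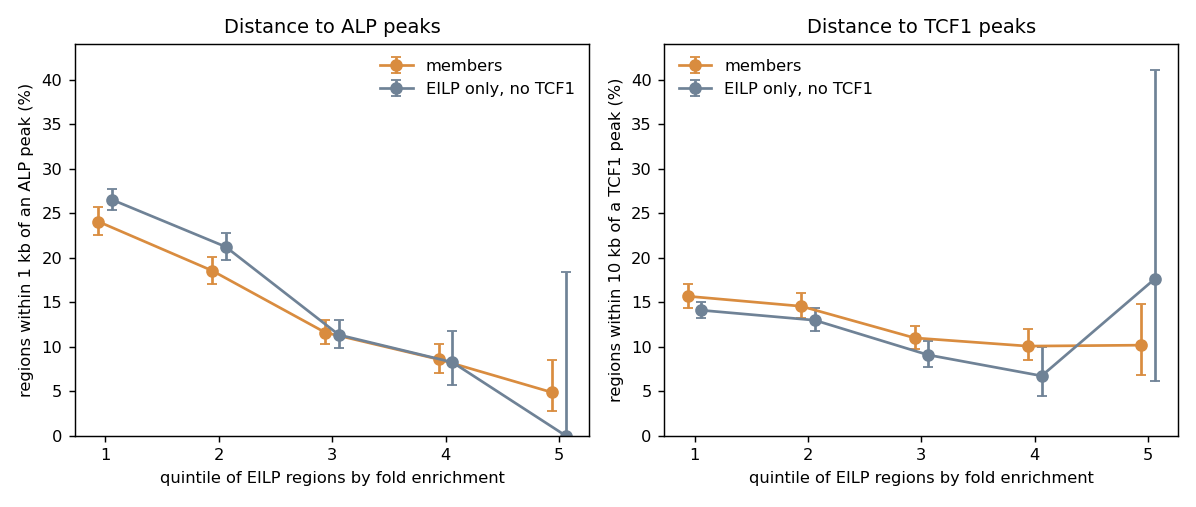
Percentage of regions within 1 kb of an ALP peak (left) and within 10 kb of a TCF1 peak (right) by quintile of EILP fold enrichment (5 = strongest), for members (orange) and for regions found in EILP alone without TCF1 (grey), with 95% Wilson intervals. On the left the orange line falls from 24.0% to 4.87%, and the last grey point rests on 17 regions.

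The neighbours of members had close to the makeup of the whole table. Regions of all 3 stages were slightly fewer among them, and those of the members' own pattern slightly more frequent. The nearest other region of any list was a median of 3297 bp away, against 2917 bp over all regions. It was a region of all 3 stages for 36.5% (35.5 to 37.5) of members, found in ILCP alone for 17.8% (17.0 to 18.6), in ALP alone for 11.4% and in EILP alone for 10.1% (9.53 to 10.8). The table as a whole held 39.0%, 17.2%, 11.3% and 9.65% of these patterns. A neighbour of the members' own stage pattern was found for 10.1% (9.46 to 10.7), against 9.27% of all regions. For regions found in EILP alone without TCF1, the nearest region was of all 3 stages in 38.3% and of the members' stage pattern in 9.22%. For regions present at all 3 stages without TCF1 these shares were 41.5% and 8.72%.

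Most members stood alone. Another member lay within 10 kb of 1421 of them (15.8%, 15.0 to 16.6), and the median distance from a member to the nearest other member was 46946 bp. Classes of similar size stood mostly alone too. A region of the same class lay within 10 kb of 18.1% (17.4 to 18.9) of the 9768 regions found in EILP alone, and of 20.8% (20.0 to 21.6) of the 9569 shared by ALP and EILP and lost at ILCP, both without TCF1. Joined at gaps under 10 kb, members formed 602 pairs, 63 chains of 3 and 7 chains of 4. Chromosome 18 was left out of the ranking of chains, which leaves 6 of the chains of 4. The longest of these by span ran over 24.4 kb of chromosome 1, from 181423196 to 181447637, and held no other region and no TCF1 peak. Its members had EILP folds of 4.95 to 5.62 and ILCP folds of 3.61 to 7.69. Of these, 3 lay over 10 kb from an ALP peak, and the one at 181447211 to 181447637 lay 441 bp from one. A chain on chromosome 9 from 43819118 to 43839687 spanned 8 regions, 1 of them with an ALP peak. Its strongest member, at 43839233 to 43839687, had 25 tags in EILP and 33 in ILCP, and the other 3 had 6 to 9 tags in EILP and 7 or 8 in ILCP. The third, on chromosome 17 from 3446283 to 3464479, had EILP folds of 4.20 to 6.25 and ILCP folds of 4.60 to 8.94.

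Along the chromosomes members followed the density of DHS. Their share of EILP regions was lowest on chromosome 19, at 11.4% (10.1 to 12.8), and highest on chromosome 12, at 14.0% (12.8 to 15.4), and it was 12.5% (10.8 to 14.4) on chromosome X. Members were found in 1835 of the 2233 windows of 1 Mb that held an EILP region. Across windows, the number of members and the number of other EILP regions had a Spearman's rho of 0.815, a description of windows that share the same lists. The 3 windows with the most members held 19 each. They began at 134000001 and 135000001 on chromosome 4, where members were 15.6% (10.2 to 23.0) and 19.2% (12.6 to 28.0) of the EILP regions, and at 19000001 on chromosome 10, where they were 26.0% (17.3 to 37.1) of 73. The interval of the chromosome 10 window lay above the 13.1% of all EILP regions, but it was picked from all windows for its count.

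A few members lay in stretches almost without DHS. The most isolated was on chromosome 12 at 47920413 to 47920626, 1.38 Mb from any other region, with 8 tags in EILP and 15 in ILCP. Next were 2 members of chromosome 15. The one at 87456186 to 87456346 had 7 and 9 tags and lay 622 kb from any other region, and the one at 47934251 to 47934452 had 5 and 9 tags and lay 481 kb away.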

How the data were processed

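DNase-seq peaks of ALP, EILP and ILCP and TCF1 CUT&RUN peaks of EILP were analysed as 4 deposited lists, 1 per group of pooled libraries. Peak calling by the authors used MACS 2.1.1.20160309, per the file headers, with a q threshold of 0.05, fragments of 100 bp and at most 1 tag at a position. DNase tags were shifted by 50 bp and had no control. The control for TCF1 was the pooled IgG file of 2919489 tags. For the build, the submitters' processing notes give mm9. The aligner is not given in the sources used here. The deposited values used were the pileup signal at the summit, the fold enrichment ratio and −log10 of the q-value.

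Peaks were joined, ranked and measured with Python 3.11.15, pandas 2.3.3 and scipy 1.17.1, and the counting was checked on simulated lists. Gaps were measured between region edges. A quintile keeps tied folds together. Local background was (height + 1) / fold − 1. Peaks off chromosomes 1 to 19 and X were left out. Of the 21 samples, 2 with conflicting antibody labels were put in no group. The members, lists and alternatives were chosen with earlier results of these data known. Named regions followed a rule: the 12 members with the highest lower percentile, the 3 most unequal each way, the 3 widest, the 3 most isolated, the 3 longest chains and the 3 fullest windows, without chromosome 18. Gene, promoter and motif counts needed mm9 references and were not run.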

Additional observations from a re-analysis of the deposited data

How the results depend on the processing

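No paired analysis was possible because each peak list pools its libraries, and no replicate could be left out for the same reason. The alternatives for promoter and motif shares were not run. Of 30 alternative values, 15 stayed within 1.5 times the count or within the interval of the reported share. These bands are unlike, and a changed distance cutoff moves a share by construction, so the tally does not grade the results. The number of members was 7146 to 9351 under 8 of its 9 alternatives. It was 1587 when EILP and ILCP peaks below the median fold of their list were dropped and the whole ALP list was kept. The kept share of 48.0% was 44.3% under that setting, 45.0% with peaks joined at 50% of the shorter peak, 49.2% with no ALP peak within 500 bp and 48.9% with EILP peaks as units. With the distance cut to 50% and raised 5 times, the share of members near a TCF1 peak was 7.69% and 40.6%, near another member 7.73% and 52.0%, and near an ALP peak 10.5% and 46.5%. Measured between summits, the share near an ALP peak was 14.4%. Among members above the median fold in both lists, the shares were 11.7% near a TCF1 peak, 1.67% near another such member and 8.41% near an ALP peak. The last setting leaves 1439 members, so neighbouring members are fewer by construction. The TCF1 and ALP lists were kept whole. At the low end of height, 1639 members (18.2%) had 7 tags or fewer in EILP. The lower quartile of EILP height was 8 tags for members and 9 for all EILP regions. It was 7 for regions found in EILP alone without TCF1. The part of depth in these heights was not tested.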

Other observations

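Among windows of 1 Mb with at least 20 EILP regions, a set chosen after the values were seen, the share of members was highest on chromosome 2 from 9000001, where 12 of 29 EILP regions were members (41.4%, 25.5 to 59.3) and 1 region had a TCF1 peak. Those 12 members had EILP folds of 3.84 to 8.70 and ILCP folds of 4.37 to 9.16. The next were chromosome 5 from 93000001 with 14 of 39 (35.9%, 22.7 to 51.6) and chromosome 4 from 7000001 with 7 of 20 (interval 18.1% to 56.7%). The members of the chromosome 4 window had a median EILP fold of 7.45, above the 5.71 of all members. These windows were picked as the highest of 1289, so their intervals do not allow for the choice.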
